A study of Mus musculus with 2 samples.

Results

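The 9 genes described here encode integrin chains of T cells, called the members below: the β chain genes Itgb1, Itgb2 and Itgb7 and the α chain genes Itga1, Itga4, Itga6, Itgae, Itgal and Itgav. They were chosen by symbol, and all 9 were found among the 30905 genes of both libraries. The data are 2 single-cell RNA libraries of sorted T cells from the spleen of C57BL/6 mice, made with a 3′ droplet kit that counts molecules (unique molecular identifiers, UMIs). One library is titled Prmt5-CKO, and is called CKO below. There Cre recombinase is driven by the Cd4 gene's regulatory sequence, and both Prmt5 alleles carry loxP sites (CD4-Cre+ PRMT5fl/fl). The other library is titled Control (WT) and is called control. The genotype label of the control library also reads CD4-Cre+ PRMT5fl/fl, so the groups rest on the titles. Each library pools 3 mice per the design text, and its cells were not tied to a mouse, so each group is 1 sample. Intervals below are 95% intervals of counting error alone. No p-value is given, and a difference between the libraries cannot be told apart from a difference between 2 pools of mice. The mice's age was not given.

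Integrins are receptors made of 1 α and 1 β chain that bind cells and matrix from the T cell surface. Itgb2 pairs with Itgal to form LFA-1, which binds ICAM proteins at the synapse and the vessel wall. Itga4 pairs with Itgb1 to form VLA-4, the receptor of VCAM-1 and fibronectin, or with Itgb7 to form the gut-homing receptor of MAdCAM-1. Itgae pairs with Itgb7 into a receptor of E-cadherin, Itga1 with Itgb1 into a collagen receptor, Itga6 with Itgb1 into a laminin receptor, and Itgav with Itgb1 or other β chains into receptors of RGD-containing ligands, among them latent TGF-β. PRMT5 is an enzyme that adds methyl groups to arginines of histones and splicing proteins.

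The members lie on 7 chromosomes of mm10, each with protein-coding transcripts in GENCODE vM21. Itgb1 spans chromosome 8 from 128685654 to 128733200 on the plus strand with 16 exons. Itgb2 spans chromosome 10 from 77530252 to 77565708, plus strand, and Itgb7 chromosome 15 from 102215995 to 102231944, minus strand. Itga4 (79255426 to 79333123), Itga6 (71745616 to 71858416) and Itgav (83724397 to 83806916) all lie on the plus strand of chromosome 2. Itgal spans chromosome 7 from 127296260 to 127335138, plus strand, Itgae chromosome 11 from 73090583 to 73147446, plus strand, and Itga1 chromosome 13 from 114953096 to 115101964, minus strand. Of the members only Itga4 has another annotated gene over its 3′ untranslated region, where 3′ reads fall: Cerkl, on the opposite strand. Genes that overlap Itga1, Itga6, Itgae and Itgav, among them Pelo on the strand of Itga1, lie away from the 3′ untranslated region.

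RefSeq promoter entries (GRCm38.p6, 250 bases before the start) were matched for 5 of the 9 members. Those of Itgb1, Itgb7 and Itga4 are shown because the first was lower in the CKO library in nearly every class, the second was close to level or higher, and the third differed in direction between classes. Capitals mark the motif matches found on either strand among 4 motifs: the RUNX core TGTGGT, the ETS core GGAAGT, the SP and KLF box GGGCGG and the TATA box TATAAA.
Itgb1, chr8:128685404-128685653, plus strand: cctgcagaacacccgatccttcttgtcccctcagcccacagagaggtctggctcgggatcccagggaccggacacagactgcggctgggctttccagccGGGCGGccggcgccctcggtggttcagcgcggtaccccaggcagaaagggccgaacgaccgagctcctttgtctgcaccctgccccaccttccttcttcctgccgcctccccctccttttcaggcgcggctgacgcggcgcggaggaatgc
Itgb7, chr15:102231936-102232185, minus strand: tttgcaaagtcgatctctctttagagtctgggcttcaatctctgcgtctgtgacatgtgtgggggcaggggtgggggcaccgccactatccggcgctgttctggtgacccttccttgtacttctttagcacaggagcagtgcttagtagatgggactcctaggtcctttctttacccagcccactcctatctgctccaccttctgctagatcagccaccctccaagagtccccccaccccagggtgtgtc
Itga4, chr2:79255176-79255425, plus strand: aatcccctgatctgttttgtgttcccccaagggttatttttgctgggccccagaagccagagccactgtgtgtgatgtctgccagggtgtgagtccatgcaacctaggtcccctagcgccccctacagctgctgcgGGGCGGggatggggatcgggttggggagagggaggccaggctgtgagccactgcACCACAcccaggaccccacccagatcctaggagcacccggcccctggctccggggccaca
The Itgb1 window had 68% G and C, against a median of 52.4% over 32851 promoters, and held the SP and KLF box 151 bases before the start. The Itga4 window had 64% G and C, the same box at 114 bases and the RUNX core, on the minus strand, at 60 bases before the start. The Itgb7 window had 56% G and C and no match to these letters. Of all promoters of that length, 32.7% held the SP and KLF box, 14.0% the RUNX core, 19.7% the ETS core and 12.4% the TATA box. A match describes the letters only.

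The CKO library held 7896 barcodes and 52387620 UMIs and the control library 7407 barcodes and 48273424 UMIs. After filters, 7566 and 6619 T cells remained, with medians of 6049 and 6289 UMIs, and 11 barcodes occurred in both libraries. Cells with an Xist UMI and none of a Y-linked gene, and cells with the reverse, were both common in each library, so both pools held cells of both sexes. T cells were clustered without the 27 integrin subunit genes and classes were called "-like" from markers. T cell markers were present in every named T cell class. The summed level of 5 NK cell markers (Ncr1, Klre1, Klrb1c, Tyrobp and Gzma) was also read. It was 4238 CPM in CKO and 3142 CPM in control effector-like CD8 cells, where Ncr1 alone of them was at 0. That class was named by Gzma, in at least 40% of a cluster's cells. Its sum was therefore raised by the naming rule and does not show NK cells. It was 518 and 461 CPM in the Fcer1g cluster and 782 and 460 CPM in proliferating-like cells. Prmt5 had 250 UMIs in CKO T cells and 702 in control T cells, or 4.87 and 15.03 CPM (counts per 10⁶ UMIs of the same cells), a ratio of 0.324 (0.279 to 0.375). It was 0.261 in naive-like CD4 cells, 0.326 in naive-like CD8 cells and 0.265 in Treg-like cells. Memory-like CD8 cells had a ratio of 0.749 (0.419 to 1.26), an interval that included 1, and 0.907 (0.403 to 1.79) in cells of that class with a Cd8b1 and no Trdc UMI, on 9 and 99 UMIs.

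Some classes did not hold the same cells in both libraries. Trdc, which encodes the constant region of the γδ T cell receptor's δ chain, had a UMI in 11.3% of CKO and 3.79% of control T cells. In naive-like CD8 cells, which should lack it, the shares were 7.89% and 3.24%. In memory-like CD8 cells they were 60.5% and 4.50%, while Cd8b1, a CD8 coreceptor chain, had a UMI in 49.0% and 95.1%. In effector-like CD8 cells Trdc was found in 41.0% of CKO cells and 0 of the 49 control cells, which allows a share of up to 6.12%. In Treg-like cells the shares were 10.8% and 2.26%, and in naive-like CD4 cells 3.67% and 2.62%. Other classes differed as well: 33.3% and 1.08% of Maf-high CD4 cells, 39.3% and 13.3% of S100a4-high CD4 cells, 36.4% and 0% of the unnamed Cd44-high CD4 cells and 91.7% and 1.90% of NKT-like cells had a Trdc UMI. The main results in these classes are therefore given also for cells with no Trdc UMI, a choice made after seeing the data. NKT-like cells keep too few CKO cells for that.

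Against the control library, few members differed by 1.5-fold in the naive-like classes, and Itgb1 was the member that was lower in the CKO library almost throughout. Levels are in CPM of the class, and ratios are CKO over control. Among members with at least 50 UMIs over both libraries, 1 of 7 in naive-like CD4 cells, 0 of 8 in naive-like CD8 cells, 3 of 8 in Treg-like, 3 of 8 in memory-like CD8 and 1 of 6 in effector-like CD8 cells were past 1.5-fold in either direction. They were Itgb1 in naive-like CD4 cells, Itgb1, Itgav and Itgae in Treg-like cells, Itga6, Itgae and Itgav in memory-like CD8 cells and Itga1 in effector-like CD8 cells. The same share over all genes was 6.5% in naive-like CD4, 7.02% in naive-like CD8, 8.3% in Treg-like, 13.5% in memory-like CD8 and 13.8% in effector-like CD8 cells. Over all T cells, 1 of 9 members (Itga1) was past it, against 7.07% of genes. Without Trdc-UMI cells Itga1 was at 1.10 and Itgb1 at 0.527, so Itgb1 and not Itga1 was past it. The median log2 ratio of the tested members was −0.11 in naive-like CD4 cells, where that of all genes was 0.06, and −0.31 in Treg-like cells, where that of all genes was 0.01. In bulk sums over a class, fewer cells with a transcript and less transcript per cell cannot be told apart. Shares of cells are given beside the main results. They do not separate the 2 readings at low levels, where most cells with a UMI hold 1. In CKO naive-like CD4 cells, for example, 208 Itgb1 UMIs were in 191 cells.

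**Figure D1:**
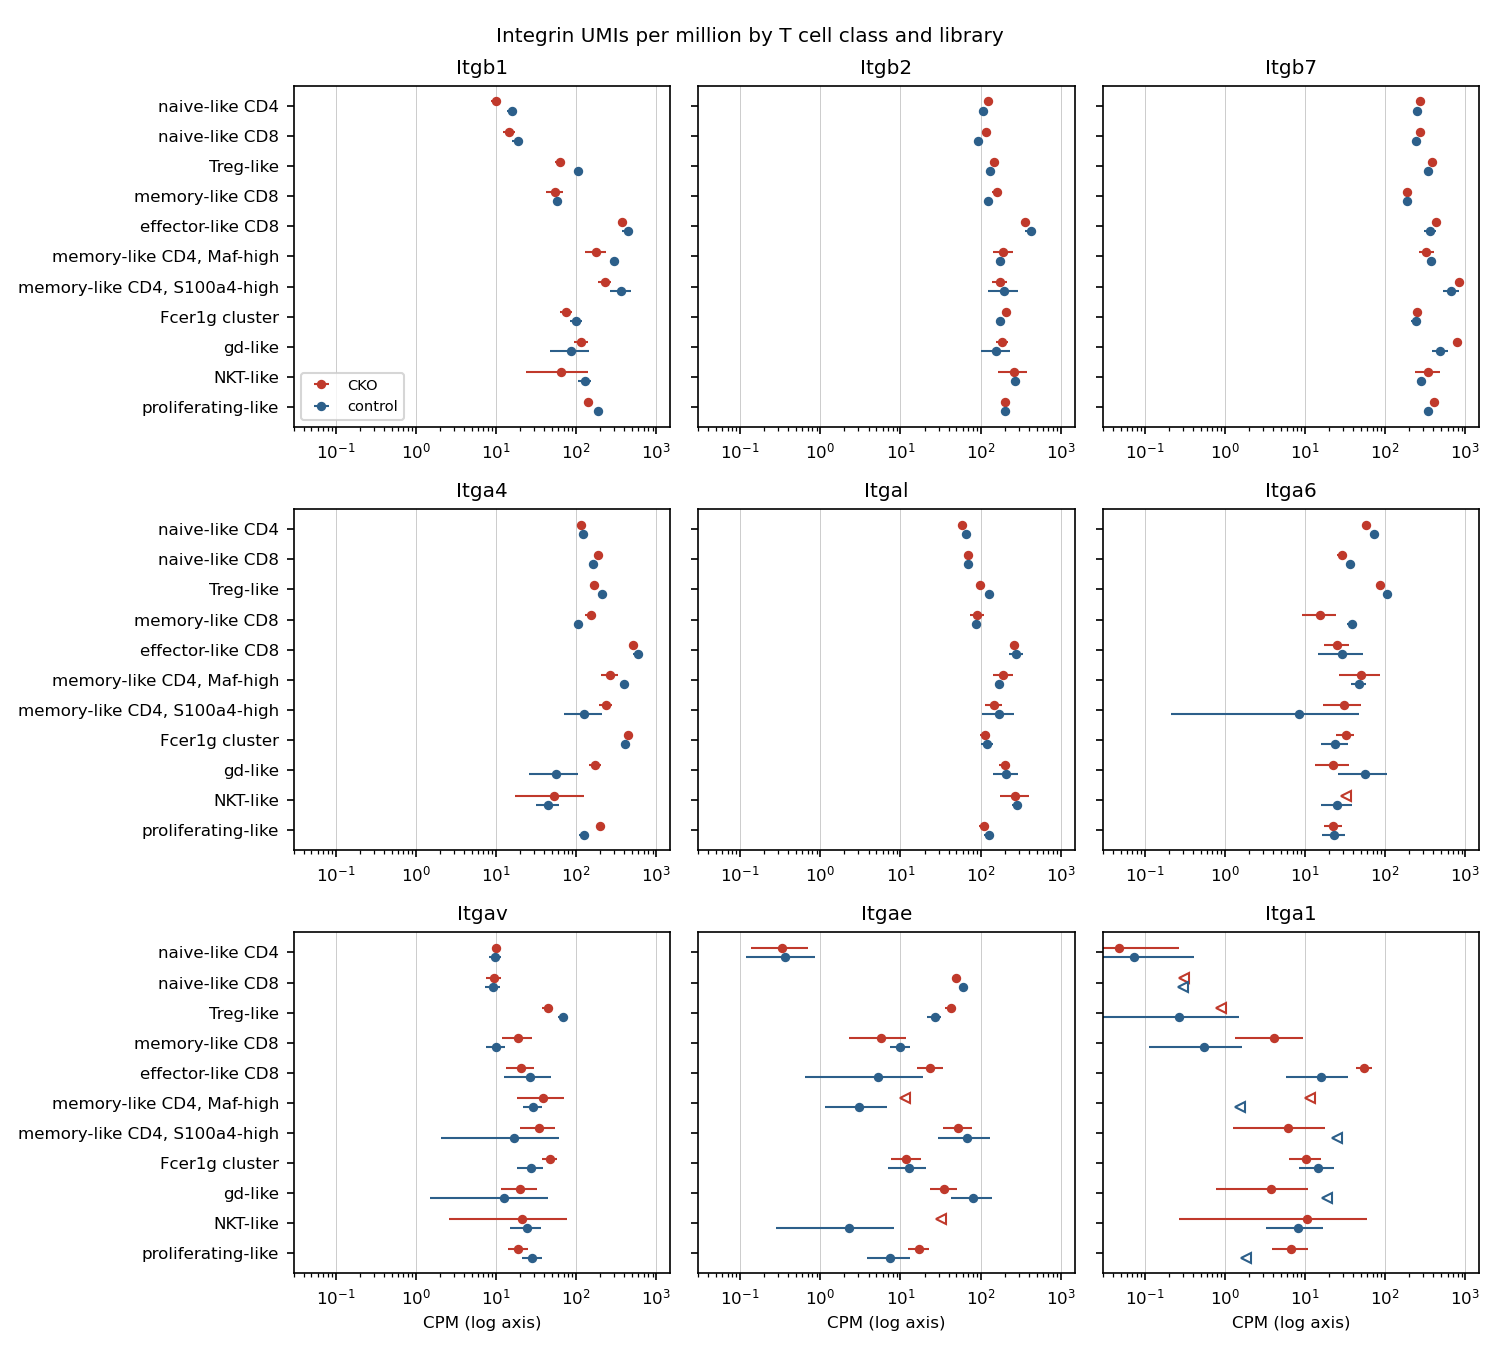
Level of each integrin gene (CPM, log axis) in 11 T cell classes in the CKO (red) and control (blue) libraries, with exact Poisson intervals as bars and open triangles at the 3-count limit where a class had 0 UMIs. Itgb1 sat lowest in naive-like cells, and Itgae spanned the widest range between naive-like CD4 and naive-like CD8 cells, 0.338 to 48.7 in the CKO library.

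Itgb1, the β chain shared by VLA-4 and the collagen and laminin receptors, was lower in the CKO library in 13 of 14 T cell classes with enough UMIs, and in 8 of them the interval lay below 1. Over all T cells it had 2366 CKO and 2988 control UMIs, 46.1 and 64.0 CPM, a ratio of 0.720 (0.682 to 0.760), and 0.527 without Trdc-UMI cells. Naive-like CD4 cells had 208 and 216 UMIs, which is 10.0 CPM (8.72 to 11.5) against 15.9 CPM (13.9 to 18.2), a ratio of 0.631 (0.519 to 0.767). The 2 intervals did not overlap. For comparison, 39.3% of all genes in that class had a ratio below 1 and 1.84% were at least 1.5-fold lower. Across the alternative settings the ratio ran from 0.481 to 0.741, so it was short of 1.5-fold in some. Naive-like CD8 cells had 141 and 187 UMIs, 14.7 and 18.7 CPM, a ratio of 0.786 (0.627 to 0.983). Here the ratio's interval only just stayed below 1.

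Regulatory T cells carried more Itgb1 than naive-like CD4 cells in both libraries, 6.20-fold in CKO and 6.59-fold in control. Treg-like cells had 206 CKO and 393 control UMIs, 62.2 and 104.8 CPM, a ratio of 0.594 (0.499 to 0.705). Without cells with a Trdc UMI the ratio was 0.526 (0.435 to 0.633), and in cells with a Foxp3 UMI and no Trdc UMI it was 0.469 (0.373 to 0.587). The difference was thus as large when those cells were left out. After each cell was thinned to 2000 UMIs, 7.89% (5.62 to 10.7) of CKO and 14.3% (11.4 to 17.6) of control Treg-like cells had an Itgb1 UMI. Before thinning the shares were 20.1% and 33.6%, at medians of 5728 and 5874.5 UMIs per cell. In naive-like CD4 cells the thinned shares were 2.19% and 3.23%, at medians of 5644.5 and 5661 UMIs.

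Memory-like CD4 cells also had less Itgb1 in the CKO library. The Maf-high class had 46 UMIs in 30 CKO cells and 581 in 277 control cells, 177 and 299 CPM, a ratio of 0.594 (0.430 to 0.803), and 0.425 (0.270 to 0.638) without Trdc-UMI cells. Its 4 subclusters did not all show this: the ratio was 0.995, 0.499 and 0.781 in 3 of them, and the other had 0 UMIs in 2 CKO cells against 52 in 19 control cells. The S100a4-high class had 113 and 43 UMIs, 229 and 363 CPM, a ratio of 0.630 (0.440 to 0.918). Without Trdc-UMI cells it was 0.671 (0.451 to 1.01), an interval that included 1. An unnamed CD4 class with high Cd44, the adhesion receptor of antigen-experienced cells, had the highest Itgb1 level of both libraries, 483 and 658 CPM, a ratio of 0.734 (0.606 to 0.889), and 0.561 (0.438 to 0.712) without Trdc-UMI cells. The clusters that made up the naive-like CD4 class differed between the libraries: cluster 4 held 1205 CKO and 311 control cells, cluster 6 held 855 and 31, cluster 5 held 570 and 1012, cluster 8 held 884 and 964, and cluster 17 held 26 and 13. The Itgb1 ratio was 0.769 in cluster 4, 0.971 in cluster 6, 0.684 in cluster 5, 0.746 in cluster 8 and 0.137 in cluster 17 (1 and 5 UMIs), each with an interval that included 1.

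CD8 classes showed how pooling changed the Itgb1 value. Itgb1 was at 371 CKO and 444 control CPM in effector-like CD8 cells (487 and 167 UMIs), a ratio of 0.835 (0.699 to 1.001), and at 54.5 and 57.5 CPM in memory-like CD8 cells (67 and 311 UMIs), a ratio of 0.949 (0.717 to 1.24). Neither interval lay clear of 1. Without Trdc-UMI cells the ratios were 0.865 (0.711 to 1.05) and 0.677 (0.413 to 1.05), and the memory-like value reached 1.05 with the highest doublet scores removed and 1.54 in cells with a Y-linked and no Xist UMI. Interferon-responding-like CD8 cells had only 6 and 25 UMIs, 8.21 and 28.9 CPM. Each of the 4 CD8 classes was below 1 with all its cells, yet all CD8 classes summed gave 54.4 and 41.4 CPM, a ratio of 1.31 (1.18 to 1.46). The CKO sum held 161 effector-like cells, the class with the highest Itgb1 of the CD8 classes, and the control sum 49. Without Trdc-UMI cells the pooled CD8 ratio was 0.956 (0.845 to 1.08), and with only cells that had a Cd8b1 and no Trdc UMI it was 0.859 (0.749 to 0.984). The CD4 classes summed, Treg-like cells left out, gave 24.2 and 56.2 CPM, a ratio of 0.430 (0.391 to 0.472), further from 1 than any single CD4 class. Over all T cells, control class levels set into the CKO make-up of classes gave 0.977 of the control level, against the observed 0.720. That value sums opposite shifts: Maf-high CD4 cells held 0.505% of CKO and 4.16% of control UMIs, and effector-like CD8 cells 2.56% and 0.805%. It also takes each class to hold the same cells in both libraries, which was not so by Trdc. The part of class make-up in the difference was not tested.

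**Figure D2:**
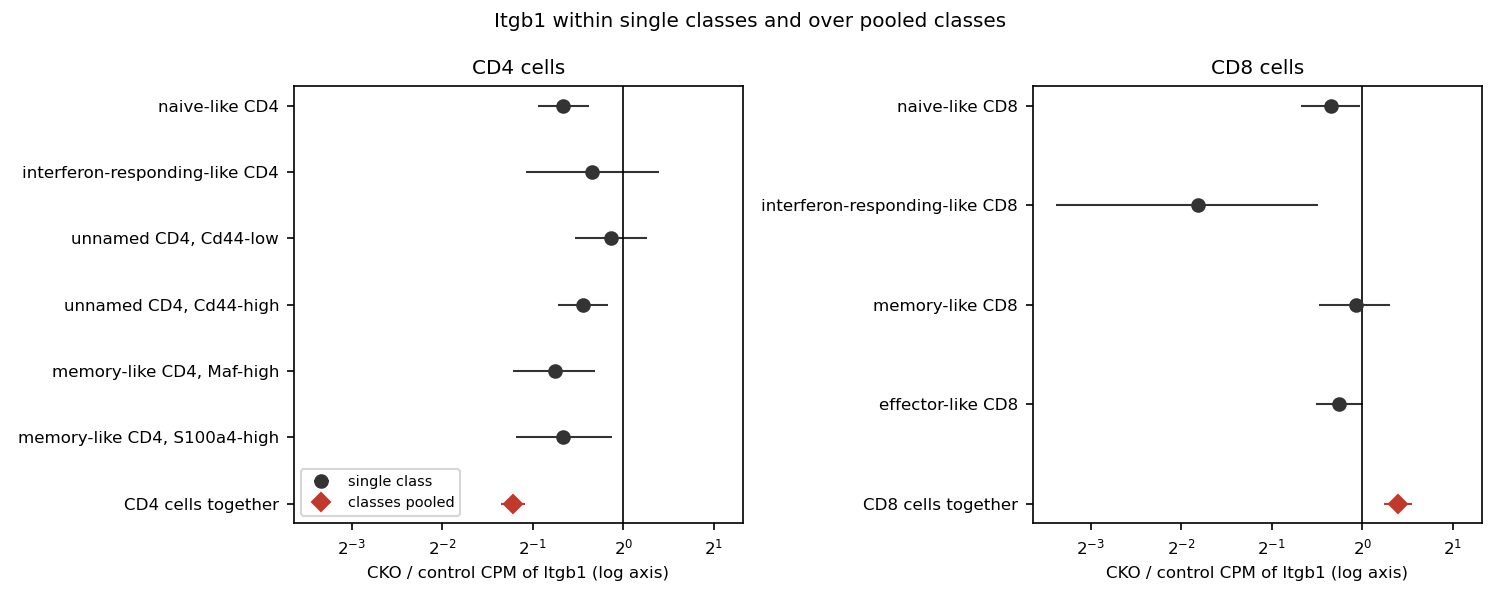
CKO over control ratio of Itgb1 (log axis) in each CD4 class (left) and CD8 class (right), with the classes pooled as red diamonds and 95% intervals as bars. Single CD8 classes all sit below 1 while the pooled CD8 value is 1.31, and the pooled CD4 value is 0.430.

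Itgb2, the β chain of LFA-1, was slightly higher in the CKO library. Naive-like CD4 cells had 2533 and 1449 UMIs, 122 and 107 CPM, a ratio of 1.15 (1.07 to 1.22). Naive-like CD8 cells had 1123 and 931 UMIs, 117 and 93.0 CPM, a ratio of 1.26 (1.15 to 1.37). For each class as a whole these are small differences that counting error did not cover. Within the single clusters of the naive-like CD4 class, which the libraries filled differently, the ratio ran from 1.09 to 1.56. Each of those intervals included 1. Of all genes, 60.7% in naive-like CD4 and 61.8% in naive-like CD8 cells also had a ratio above 1. Over 16 classes the ratio was above 1 in 13, with 5 intervals above 1 and none below, and ran from 0.848 in effector-like CD8 cells to 1.35 in the unnamed Cd44-high CD4 class. Without Trdc-UMI cells it was above 1 in 8 of 14 classes. In both libraries Itgb2 was highest in effector-like CD8 cells, at 361 and 426 CPM, 3.09-fold and 4.57-fold above naive-like CD8 cells.

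Itgb7, the β chain of the gut-homing and E-cadherin receptors, was level to slightly higher. Its ratio was 1.09 (1.05 to 1.14) in naive-like CD4 cells, with 273 and 250 CPM, 1.10 (1.04 to 1.16) in naive-like CD8 cells, with 269 and 244 CPM, and 1.10 (1.02 to 1.19) in Treg-like cells, with 379 and 345 CPM. The Treg-like value was 1.05 (0.962 to 1.14) without Trdc-UMI cells. Within the 5 clusters of the naive-like CD4 class the ratio ran from 0.825 to 1.06, each below the class value and each with an interval that included 1. Over 15 classes the ratio was above 1 in 13, from 0.869 to 1.65. The largest was in γδ-like cells, where 631 UMIs in 102 CKO cells and 77 in 17 control cells gave 794 and 482 CPM, 1.65 (1.30 to 2.12). With all cells, only the unnamed Cd44-low CD4 class had an interval below 1, at 0.894 (0.815 to 0.980). Without Trdc-UMI cells the Maf-high CD4 class had one too, at 0.675 (0.493 to 0.904). Levels of Itgb7 varied little between the naive-like classes: CD8 over CD4 was 0.984 for CKO cells and 0.978 for control cells.

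Itga4, the α chain of VLA-4 and of the gut-homing receptor, differed in direction between classes. Naive-like CD4 cells had 2370 and 1681 UMIs, 114 and 124 CPM, a ratio of 0.924 (0.868 to 0.984). The clusters of that class went both ways: the ratio was 0.788 (0.660 to 0.945) in cluster 4, 0.758 in cluster 6, 0.969 in cluster 5, 0.666 in cluster 17 and 1.09 (0.998 to 1.19) in cluster 8. With the stricter cell filter the class was at 1.02. Naive-like CD8 cells had 1827 and 1638 UMIs, 190 and 164 CPM, a ratio of 1.16 (1.09 to 1.24). CD8 over CD4 was 1.66 (1.56 to 1.77) for CKO cells and 1.32 (1.24 to 1.42) for control cells, intervals that did not overlap. Treg-like cells had 549 and 789 UMIs, 166 and 210 CPM, a ratio of 0.789 (0.706 to 0.880), and 0.729 (0.646 to 0.821) without Trdc-UMI cells. In cells with a Y-linked and no Xist UMI it was 1.01. After thinning, 21.7% of CKO and 31.5% of control Treg-like cells had an Itga4 UMI, and 48.6% and 56.4% before. In naive-like CD8 cells the thinned shares were 31.3% and 27.4%.

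In memory-like CD8 cells Itga4 was at 152 and 106 CPM, a ratio of 1.43 (1.21 to 1.69), but 0.936 (0.692 to 1.24) without Trdc-UMI cells. Among the 53 CKO and 511 control cells of that class with a Cd8b1 and no Trdc UMI it was 0.826 (0.591 to 1.13), so the direction turned. Its level was highest in effector-like CD8 cells in both libraries, 519 and 596 CPM, with a ratio of 0.871 (0.748 to 1.02). In the control library the interval of that class overlapped that of the next, the unnamed Cd44-high CD4 class, and in the CKO library it overlapped none. Proliferating-like cells had a ratio of 1.62 (1.37 to 1.92), and 1.23 (1.03 to 1.49) without Trdc-UMI cells. Memory-like CD4 cells, all cells counted, differed by class: 0.677 (0.521 to 0.867) in Maf-high and 1.87 (1.09 to 3.45) in S100a4-high cells, the last on 15 control UMIs. A Trdc UMI was in 33.3% of CKO and 1.08% of control Maf-high cells, and in 39.3% and 13.3% of S100a4-high cells. Over the tested classes 6 of 15 Itga4 intervals lay above 1, and 3 of 13 without Trdc-UMI cells. Those below 1 numbered 3 and 4. In γδ-like cells 138 CKO and 9 control UMIs gave 3.09 (1.58 to 6.89).

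Itgal, the LFA-1 α chain, differed little. Its ratios ran from 0.787 to 1.26 over 15 classes, and 3 intervals lay below 1 and none above. Without Trdc-UMI cells the unnamed Cd44-high CD4 class was at 1.46 (1.04 to 2.06) and proliferating-like cells were at 0.709 (0.574 to 0.874). Treg-like cells had 327 and 471 UMIs, 98.8 and 126 CPM, a ratio of 0.787 (0.681 to 0.908), and 0.801 without Trdc-UMI cells. Naive-like CD4 cells had 59.4 and 64.9 CPM, a ratio of 0.914 (0.838 to 0.998), and naive-like CD8 cells 70.6 and 69.8 CPM, a ratio of 1.01 (0.909 to 1.13). Like Itgb2, Itgal was high in effector-like CD8 cells, at 260 and 279 CPM, 3.68-fold and 4.004-fold above naive-like CD8 cells.

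Itga6, the laminin receptor's α chain, was the other member that was lower in the CKO library in several classes. Naive-like CD4 cells had 1202 and 986 UMIs, 58.0 and 72.6 CPM, a ratio of 0.799 (0.734 to 0.870). By cluster of that class it was 0.678 (0.540 to 0.846) in cluster 5 and 0.857 (0.749 to 0.981) in cluster 8. It was 0.897 in cluster 4, 0.855 in cluster 6 and 1.72 in cluster 17, each with an interval that included 1. Naive-like CD8 cells had 275 and 369 UMIs, 28.6 and 36.9 CPM, a ratio of 0.777 (0.662 to 0.910). Treg-like cells had 286 and 395 UMIs, 86.4 and 105 CPM, a ratio of 0.821 (0.702 to 0.958), and 0.842 without Trdc-UMI cells. All 3 class ratios lay below 1 and short of 1.5-fold. Memory-like CD8 cells had 19 and 206 UMIs, 15.5 and 38.1 CPM, a ratio of 0.406 (0.240 to 0.651). With a Cd8b1 and no Trdc UMI it was 0.456 (0.205 to 0.883), on 9 and 197 UMIs, so the direction held there. Over 9 classes 6 were below 1, 5 of them with the interval below 1. Itga6 was highest in Treg-like and next in naive-like CD4 cells in both libraries, and naive-like CD8 cells had 0.494 of the naive-like CD4 level in CKO and 0.508 in control.

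Itgav, the α chain of RGD-binding integrins, was higher in Treg-like than in naive-like CD4 cells. In the control library Treg-like cells had 68.5 CPM, 6.95-fold the naive-like CD4 level, and in the CKO library 44.4 CPM, 4.36-fold. Other classes were close: the Fcer1g cluster was highest in CKO, at 47.1 CPM, with Maf-high CD4 cells at 38.6 CPM, and in control the interval of Treg-like cells overlapped that of the next class. Treg-like cells had 147 and 257 UMIs, a ratio of 0.648 (0.526 to 0.797). It was 0.617 (0.493 to 0.770) without Trdc-UMI cells and 0.556 (0.423 to 0.726) in cells with a Foxp3 and no Trdc UMI. Thinned shares of Treg-like cells with an Itgav UMI were 6.61% and 13.2%, and unthinned 22.2% and 28.6%. In naive-like CD4 and CD8 cells the ratio was 1.03 in each, with intervals from 0.827 to 1.29 and from 0.763 to 1.39. In memory-like CD8 cells it was 1.88 (1.10 to 3.11) on 23 and 54 UMIs, and 1.15 (0.404 to 2.68) with a Cd8b1 and no Trdc UMI. In the Fcer1g cluster Itgav was higher in CKO, at 1.74 (1.15 to 2.69), and at 2.56 (1.36 to 5.17) without Trdc-UMI cells, on 45 and 13 UMIs.

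Itgae, the CD103 α chain of the E-cadherin receptor, was the tested member with the largest difference between naive-like CD8 and naive-like CD4 cells. Naive-like CD8 cells had 468 and 597 UMIs, 48.7 and 59.7 CPM, whereas naive-like CD4 cells had 7 and 5 UMIs, 0.338 and 0.368 CPM. CKO cells gave a CD8 over CD4 ratio of 144 (69.5 to 361), and control cells one of 162 (69.1 to 501). Past 1.5-fold between these classes were 3 of 8 members in CKO, namely Itgae, Itga4 and Itga6, and 2 of 8 in control, Itgae and Itga6. Of all genes, 12.6% in CKO and 11.9% in control were past it. Between libraries, naive-like CD8 cells had an Itgae ratio of 0.817 (0.722 to 0.923). The thinned share of these cells with a UMI was 8.23% in CKO and 12.3% in control, 27.1% and 30% before thinning. In naive-like CD4 cells, at similar depth, the thinned shares were 0.0285% of 3509 and 0 of 2321 cells, which allows up to 0.129%.

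In Treg-like cells the Itgae difference went the other way and rested partly on cells with a Trdc UMI. The class had 140 and 100 UMIs, 42.3 and 26.7 CPM, a ratio of 1.59 (1.22 to 2.07). Of the 140 CKO UMIs, 46 were in the 51 cells with a Trdc UMI, at 99.5 CPM, and 76.5% of those cells also had a Foxp3 UMI. Cells with no Trdc UMI had 94 and 99 UMIs, a ratio of 1.21 (0.900 to 1.62), and those with a Foxp3 UMI as well had 1.11 (0.793 to 1.56). Neither interval excluded 1. In effector-like CD8 cells Itgae had 31 UMIs in 13 CKO cells and 2 in 2 control cells, and 5 against 2 among cells with a Cd8b1 and no Trdc UMI. Memory-like CD8 cells had 7 CKO and 54 control UMIs, a ratio of 0.571 with an interval that included 1. With a Cd8b1 and no Trdc UMI the ratio there was 0.575 (0.115 to 1.78), on 3 and 52 UMIs. Proliferating-like cells had 43 and 12 UMIs, a ratio of 2.29 (1.19 to 4.77), and 30 and 12 UMIs, 1.96 (0.977 to 4.21), without Trdc-UMI cells. There 23.3% of CKO and 6.58% of control cells had a Trdc UMI.

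Itga1, the α chain of the collagen receptor, was nearly absent from naive-like and Treg-like cells. In the CKO library effector-like CD8 cells were highest, with the unnamed Cd44-high CD4 class at 12.7 CPM and the Fcer1g cluster at 10.3 CPM. In the control library the Cd44-high class was highest, at 22.9 CPM, and its interval overlapped that of effector-like CD8 cells. The Fcer1g cluster was close there, at 14.4 CPM, and held 17 control UMIs, with 7 in NKT-like cells. Naive-like CD4 cells had 1 UMI in each library, naive-like CD8 cells 0, and Treg-like cells 0 and 1. Effector-like CD8 cells had 72 UMIs in 45 of 161 CKO cells, none with more than 5, and 6 UMIs in 3 of 49 control cells, 54.8 and 15.96 CPM. The ratio was 3.43 (1.503 to 9.67). Across the alternative settings it ran from 1.08 to 4.83, so it came close to 1 at the lowest. Among cells with a Cd8b1 and no Trdc UMI, 31 UMIs in CKO and 6 in control gave 2.75 (1.13 to 8.07), below the minimum of 50 UMIs. The other 90 CKO cells of the class held 41 UMIs and the other 12 control cells 0. After thinning, 10% (5.82 to 15.7) of CKO effector-like cells and 0 of 49 control cells had a UMI, which allows up to 6.12%. Unthinned shares were 28.0% and 6.12%. Over all T cells the ratio was 2.71 (1.93 to 3.86) and 1.10 (0.711 to 1.70) without Trdc-UMI cells.

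**Figure D3:**
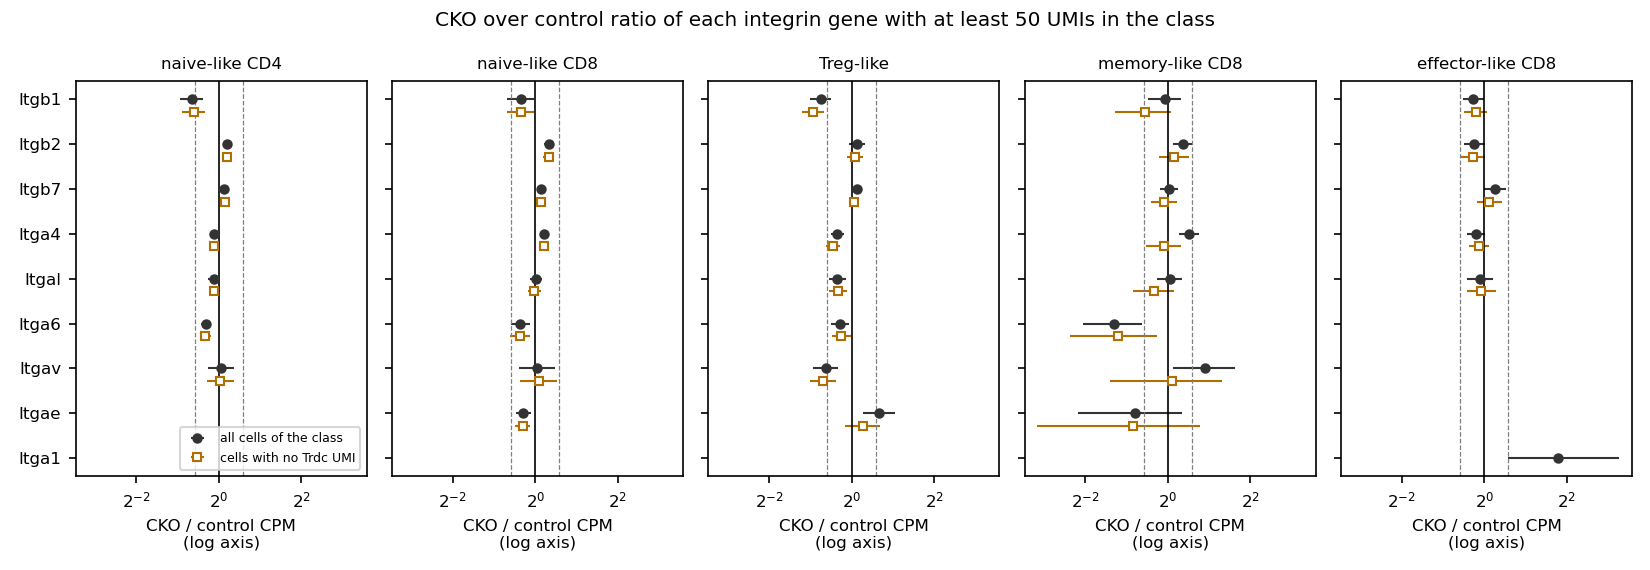
CKO over control ratio (log axis) of the members with at least 50 UMIs in 5 classes, for all cells of the class (filled circles) and for cells with no Trdc UMI (open squares), with 95% intervals and dashed lines at 1.5-fold. Itgb1 and Itgav in Treg-like cells lie past 1.5-fold in both, while Itga4 in memory-like CD8 cells moves from 1.43 to 0.936 and Itgae in Treg-like cells from 1.59 to 1.21.

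**Figure D4:**
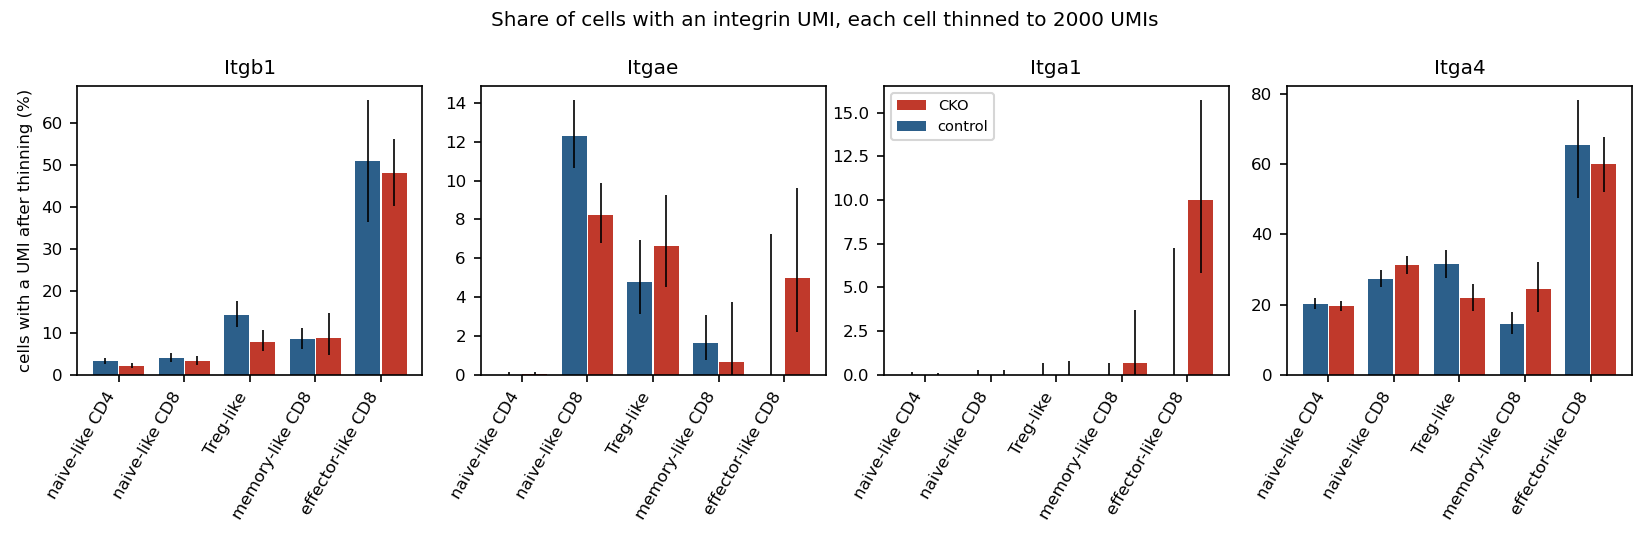
Share of cells with an Itgb1, Itgae, Itga1 or Itga4 UMI (percent, each cell thinned to 2000 UMIs) in 5 classes of the control (blue) and CKO (red) libraries, with exact binomial intervals and a scale of its own in each panel. An Itgb1 UMI was seen in 7.89% of the CKO Treg-like cells against 14.3% in control, and Itga1 in 10% and 0% of effector-like CD8 cells.

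Single cells with UMIs of both chains of a heterodimer were counted after thinning, as a description. Itga4 with Itgb7 was the most frequent pair, in 10.2% of CKO and 9.36% of control T cells, close to the products of the single shares, 10.2% and 9.54%. Itga4 with Itgb1 was found in 2.14% and 2.76%, where the products were 1.43% and 1.98%. Itgal with Itgb2, the LFA-1 pair, was found in 4.53% and 3.88%, with products of 3.58% and 3.38%. Itga6 with Itgb1 was below its product in both libraries, 0.373% against 0.521% and 0.682% against 0.808%. The observed share was above the product for 6 of 7 pairs in CKO and 5 of 7 in control. Cells differ in type, and a gene's absence from a thinned cell does not show that it is unexpressed.

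The remaining genes of the pathway were read from lists. Of the 18 other integrin subunits, 3 reached 50 UMIs in naive-like CD4, 1 in naive-like CD8 and 2 in Treg-like cells. The 1 in naive-like CD8 cells was Itgb3, a β chain that can pair with Itgav, with 63 and 25 UMIs and a ratio of 2.63 (1.63 to 4.36). Itgb8, which pairs with Itgav and activates latent TGF-β, had 44 CKO and 96 control UMIs in Treg-like cells, 13.3 and 25.6 CPM, a ratio of 0.519 (0.355 to 0.750). Transcripts of both chains of that receptor were therefore lower in the CKO Treg-like cells, and the proteins were not measured. The Itgb8 value is for all cells of the class, of which 10.8% of CKO and 2.26% of control cells had a Trdc UMI. In naive-like CD4 cells none of the 3 was past 1.5-fold: Itgb3 was at 1.28, and Itga2 was at 0.726 and Itga7 at 0.760, the last 2 with intervals that included 1.

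Of 19 genes listed for the activation of integrins from inside the cell, 16 were tested in each of these 3 classes. The list mixes genes that drive this step with genes that restrain it, such as Sipa1 and Rap1gap2. Its counts and medians therefore give no direction of activation. None was past 1.5-fold in naive-like CD4 cells and 1 was higher in naive-like CD8 and in Treg-like cells, Rasgrp2, an exchange factor that turns on RAP1. Of all genes, 6.5% in naive-like CD4, 7.02% in naive-like CD8 and 8.3% in Treg-like cells were past it. A count of 1 of 16 does not set the list apart from them. Rasgrp2 was at 355 and 252 CPM in naive-like CD4 cells, a ratio of 1.41 (1.35 to 1.47), at 326 and 211 CPM in naive-like CD8 cells, a ratio of 1.55 (1.46 to 1.64), and at 221 and 138 CPM in Treg-like cells, a ratio of 1.61 (1.43 to 1.803). The list's median log2 ratio was 0.02, 0.06 and 0.08, against 0.06, 0.07 and 0.01 over all genes. Rap1b, the small GTPase of that step, was at 0.892 in naive-like CD4 cells. A separate list of 5 brakes on integrin activation, among them Dok1, Dok2 and Sharpin, had none past 1.5-fold in these 3 classes. Dok2 was at 0.883 in naive-like CD4 and 0.867 in naive-like CD8 cells, Sharpin at 1.18 in naive-like CD8 cells, and Dok1 at 1.15 in Treg-like cells.

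Among genes of signalling and actin linkage, 1 of 18 tested in naive-like CD4 cells was past 1.5-fold: Ptk2, focal adhesion kinase, with 39 and 60 UMIs and a ratio of 0.426 (0.277 to 0.648). None of 16 was in naive-like CD8 or Treg-like cells, where Nedd9 was at 0.846 and Lims1, a partner of integrin-linked kinase, at 0.801. Among ligands and partners, Icam1, the ligand of LFA-1, was at 15.6 and 9.06 CPM in naive-like CD4 cells, a ratio of 1.72 (1.39 to 2.14), as 1 of 8 tested. Tetraspanins, which sit beside integrins in the membrane, differed by class, as 1 of 7 tested in each: Cd81 was at 2.07 (1.52 to 2.84) in naive-like CD8 cells and Cd9 at 0.497 (0.404 to 0.609) in Treg-like cells. Past 1.5-fold were 6.5% of all genes in naive-like CD4, 7.02% in naive-like CD8 and 8.3% in Treg-like cells. With so few genes tested, single genes do not set these lists apart. In the TGF-β signalling list none of 9 was past 1.5-fold in the 3 classes. There 8 of 9 were below 1 in naive-like CD4 cells, against 39.3% of all genes, with a median log2 ratio of −0.13. In naive-like CD8 and in Treg-like cells 6 of 9 were below 1, against 38.2% and 48.1% of all genes. Ski, a repressor of SMAD signalling, was at 0.762 (0.702 to 0.827) in naive-like CD4 cells, Skil at 0.794 in naive-like CD8 cells, Smad3 at 1.31 and 1.39 in those 2 classes and at 0.819 in Treg-like cells, and the receptor chain Tgfbr2 at 0.874 in Treg-like cells. Memory-like CD8 cells had the following list genes past 1.5-fold: 1 of 16 activation genes, 1 of 5 brakes (Dok2, at 1.69), 2 of 16 signalling genes, 2 of 6 ligands and partners and 3 of 9 TGF-β genes, where 13.5% of all genes were and 60.5% of CKO cells had a Trdc UMI.

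The genes whose pattern was most like each member's were ranked by Pearson correlation of log2(CPM + 10) over 29 sums of class and library with at least 30 cells, among 9681 genes. The sums share 2 libraries and the same cell types, so the values describe these libraries. Itgb1 was most like Rac2 (r of 0.93), Cxcr3 and Rab8b (both 0.92), Itgb2 most like Sub1 (0.91), Atg4d (0.89) and Arpc2 (0.87), and Itgb7 most like Gm2a, Atp6v0e and Mif4gd (each 0.90). Serpinb6b and Il18rap (both 0.85) were among the genes most like Itga1, Itgal was most like Bcl2a1d (0.90), Mthfsl and Sh2d2a (both 0.89), and Itgav most like Samsn1 (0.84), Nt5e and Rilpl2 (both 0.83). The values were lower for Itga4, with Bin2 (0.80), Baiap3 (0.79) and Znrf2 (0.77), for Itga6, with Zfp467 (0.79), Ccs (0.78) and St8sia6 (0.77), and for Itgae, with Ehd1, Ggt1 (both 0.71) and Actn2 (0.69). Among the members the LFA-1 chains Itgb2 and Itgal were most alike (0.90), followed by Itgb1 and Itgal (0.87). For Itga1 the correlations rest on few sums, since it was at 0 in many of them and highest, at 54.8 CPM, in CKO effector-like CD8 cells.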

How the data were processed

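The authors deposited raw UMI counts per gene and cell for each library. The submitters' processing notes name Cell Ranger 3.1.0, CASAVA 1.8, Seurat 2.3.4 and the mm10 build, without their roles. Kept were cells that had 500 or more genes and a mitochondrial share below 10% (7660 CKO, 6712 control). They were normalized and clustered in scanpy 1.11.5 (2000 variable genes without integrin, T cell receptor, immunoglobulin, mitochondrial and ribosomal protein genes; 30 components; Leiden resolution 1). Marker thresholds that turned clusters into classes were set after the clusters were seen. Scrublet called 0 cells in either library, so it did not work here, and no doublet was removed. Counts were summed per class and library; 50 UMIs over both libraries were required for calls. Intervals were Poisson, conditional binomial and Clopper-Pearson, at 95%. Only the conditional binomial interval of ratios was checked on simulated data, for naive-like CD4 and Treg-like cells. The simulated counts were Poisson, so the check covers counting error alone. Named were the 9 members in every class, list genes past 1.5-fold or else the 2 with the largest log2 ratio, and 3 most alike genes per member, of which 1 is not reported here. The members and lists were chosen with earlier results of these data known. Protein sequences were not compared here. Alternatives covered cell filters, clustering, scaling, thinning, doublet scores and gates.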

Additional observations from a re-analysis of the deposited data

Results flagged for a closer look

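Among the naive-like CD4, naive-like CD8, Treg-like, memory-like CD8 and effector-like CD8 classes, the ratio of CKO to control lay on opposite sides of 1, beyond counting error, for 3 members. Over all classes Itgb7 did so too, at 0.894 in the unnamed Cd44-low CD4 class. With 1 library a group the differences between classes were not tested. Itga4 was at 1.43 in memory-like CD8 and 1.16 in naive-like CD8 cells, but at 0.789 in Treg-like and 0.924 in naive-like CD4 cells. The memory-like CD8 value was 0.936 in cells with no Trdc UMI, and 60.5% (CKO) and 4.50% (control) of that class had one. The other 3 kept their side of 1 in cells with no Trdc UMI, at 1.16, 0.729 and 0.914, but Itga4 was at 1.02 in naive-like CD4 cells with the stricter cell filter and at 1.01 in Treg-like cells with a Y-linked and no Xist UMI. Itgae was at 1.59 in Treg-like and 4.44 in effector-like CD8 cells, the last on 31 and 2 UMIs, but at 0.817 in naive-like CD8 cells. In cells with no Trdc UMI the Treg-like value was 1.21 (0.900 to 1.62) and the naive-like CD8 value 0.813. Itgav was at 1.88 in memory-like CD8 and 0.648 in Treg-like cells, and at 1.07 (0.376 to 2.49) and 0.617 in cells of those classes with no Trdc UMI. In the Fcer1g cluster, outside these classes, Itgav was at 1.74 (1.15 to 2.69), and at 2.56 (1.36 to 5.17) in cells with no Trdc UMI.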

How the results depend on the processing

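The 2 groups have 1 library each, so nothing here measures the spread between mice, and depth limits Itga1, Itgae and Itgav in most classes. No paired analysis was possible because each group has 1 library. Of 61 single ratios with an interval clear of 1, 571 of 580 alternatives kept the direction. Over all 101 single ratios, 775 of 890 alternatives stayed inside the main interval, 106 moved outside it and 9 turned direction. Most alternatives reuse the same cells or rescale the same sums, so they are not independent. The alternatives by sex-linked and Trdc or Cd8b1 UMIs were added after seeing the data. Itgb1 stayed below 1 in naive-like CD4 (0.481 to 0.741), naive-like CD8 (0.643 to 0.859) and Treg-like cells (0.501 to 0.710) under the alternatives run. It was lower still, at 0.469, in Treg-like cells with a Foxp3 and no Trdc UMI, which is no alternative to the whole class. Directions turned for Itga4 in all T cells (0.954, no Trdc UMI), in naive-like CD4 cells (1.02, 1000 genes and under 5% mitochondrial UMIs), in Treg-like cells (1.01, Y-linked UMI and no Xist UMI) and in memory-like CD8 cells (0.936, no Trdc UMI; 0.826, Cd8b1 and no Trdc UMI). They turned too for Itgae in CD4 cells together (0.736, gates on Cd4, Cd8a, Cd8b1 and Foxp3 UMIs), and in CD8 cells together for Itgb1 (0.956, no Trdc UMI; 0.859, Cd8b1 and no Trdc UMI) and Itgal (0.984, Cd8b1 and no Trdc UMI). The causes were not tested.

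Counts of members past 1.5-fold moved as follows. With the stricter cell filter they went from 1 to 2 in all T cells and from 2 to 1 in CD4 cells together. With integrin genes in the clustering they went from 1 to 0 in naive-like CD4 cells and from 2 to 1 in CD4 cells together, and with the gates also from 2 to 1 there. At Leiden resolution 0.5 naive-like CD8 went from 0 to 1, and no memory-like CD8 class existed. In cells with Xist and no Y-linked UMI they went from 1 to 0 in naive-like CD4, effector-like CD8 and CD8 cells together and from 3 to 1 in memory-like CD8 cells. In cells with a Y-linked and no Xist UMI they went from 1 to 2 in all T cells, 3 to 1 in Treg-like cells, 2 to 1 in CD4 cells together and 1 to 0 in CD8 cells together. The member counted in CD8 cells together was Itga1, whose ratio ran from 5.17 to 13.5 over all alternatives. Both sex-linked drops to 0 there thus came from the minimum of 50 UMIs and not from a smaller ratio. With no Trdc UMI, with or without a Cd8b1 UMI, effector-like CD8 and CD8 cells together went from 1 to 0, by construction, since Itga1 then had under 50 UMIs. Shares past 1.5-fold in Treg-like cells went from 2 to 1 with the stricter filter, thinning to 1000 UMIs or no thinning, and in naive-like CD8 cells from 0 to 1 with thinning to 1000 UMIs. List genes in naive-like CD4 cells went from 2 to 1 at a minimum of 100 UMIs. Of 127 alternatives to such counts, 104 stayed within 1.5 times.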
